A study of Mus musculus with 12 samples.

Results

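MHC class I presentation is described here through 10 genes in ETV4 knockout and control 4T1 cells: the coactivator Nlrc5, the class I heavy chains H2-K1 and H2-D1, their light chain B2m, the peptide transporter genes Tap1 and Tap2, the loading factor Tapbp, and the immunoproteasome subunits Psmb8, Psmb9 and Psmb10. They were taken by symbol from a table of 31017 genes, and all 10 were found and passed the filter on low counts, as did 12079 genes in all. RNA came from 12 libraries of 4T1, a mouse mammary carcinoma line, which was embedded in gels of collagen I. The groups, of 3 libraries each, were ETV4 knockout, control, ETV4 knockout with FGF, and control with FGF. All cells had received Cas9, with an ETV4 guide in the knockout and a control guide otherwise, and all were kept in 2% serum for 4 days. The FGF groups had 25 ng/ml of FGF10 and 40 ng/ml of FGF2, begun in richer serum on the day of seeding. The serum of the groups without FGF on that day is not stated, so a difference in it cannot be told apart from FGF. Gels held 1.2 or 2.4 mg/ml of collagen, and which of these a given library had is not stated.

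All 6 knockout libraries carry the same tag in their library names, and nothing in the labels tells whether they derive from 1 clone, so clone and genotype cannot be told apart. Nor are the replicates stated to be separate cultures: a p-value here reflects only how these libraries vary, and that spread may be technical. 4T1 arose in a BALB/c mouse, whose class I alleles are of the d haplotype, while the mm10 reference carries the b haplotype of C57BL/6. The counts named H2-K1, H2-D1 and H2-Q therefore come from reads of other alleles laid on these models, and how that moved them was not tested. Library totals ran from 18229429 to 23193244 counts. A principal component with 71.4% of the variance separated the genotypes, and ETV4 knockout replicate 2 stood apart on the next, with 10.4%. Ribosomal protein genes took 6.74% of the counts in that library, against 4.75% to 5.88% in the other libraries. Epithelial markers summed to 3017 to 4724 CPM (read counts scaled to library size) over the libraries, although Krt5 was at 0 in all of them. Adgre1 and Cd3e, which define macrophages and T cells, were at 0 in all 12 libraries. Etv4 itself averaged 130.4 ± 24.8 CPM in knockout cells and 165.8 ± 3.18 CPM in controls, a log2 fold change of -0.35 (SE 0.11, edgeR adjusted p = 0.0173). The call was lost without knockout replicate 1, knockout replicate 3 or control replicate 1 (edgeR adjusted p = 0.0661, 0.0667 and 0.0514). With FGF it averaged 115.9 ± 3.30 CPM in knockout cells and 164.8 ± 9.44 CPM in controls, a log2 fold change of -0.51 (SE 0.11, edgeR adjusted p = 0.00204). A guide can disrupt a protein without removing its RNA, so this level is a weak check of the labels.

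MHC class I molecules show peptides from inside the cell to cytotoxic T cells. Proteasomes cut the peptides, the Tap1-Tap2 transporter carries them into the endoplasmic reticulum, and Tapbp (tapasin) holds the empty heavy chain and B2m at the transporter until a peptide fits. Under interferon-gamma the inducible catalytic subunits Psmb8, Psmb9 and Psmb10 replace their constitutive counterparts Psmb5, Psmb6 and Psmb7. Nlrc5 is a member of the NOD-like receptor (NLR) family that enters the nucleus and, having no DNA-binding domain of its own, acts through the RFX, CREB/ATF and NF-Y factors bound at the SXY module of class I promoters. Tumour cells often show low class I levels.

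The promoter sequences are shown because this module is read in them. RefSeq promoter windows on GRCm38.p6, from 250 bases before to 50 after a transcript start, were at hand for 8 of the 10 genes; Nlrc5 and Tap2 had none. The X2 box of the module carries the CREB/ATF core TGACG, and the Y box carries ATTGG, which is CCAAT on the other strand and is bound by NF-Y. In the stretches of H2-K1 (chr17:34000351-34000481, minus strand), H2-D1 (chr17:35262900-35263030, plus strand), B2m (chr2:122147540-122147646, plus strand) and the further heavy chain gene H2-M3 (chr17:37270180-37270225, plus strand), capitals mark both boxes, with 20 bases between them. In H2-K1 and H2-D1 capitals also mark 2 matches to the NF-kB core, and in B2m the interferon-stimulated response element (ISRE) core.
H2-K1: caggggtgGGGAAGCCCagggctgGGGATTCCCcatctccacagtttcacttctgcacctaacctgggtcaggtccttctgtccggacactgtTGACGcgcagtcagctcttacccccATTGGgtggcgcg
H2-D1: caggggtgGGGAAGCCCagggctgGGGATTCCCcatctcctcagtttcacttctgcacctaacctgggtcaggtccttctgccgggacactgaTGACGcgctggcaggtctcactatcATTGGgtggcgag
B2m: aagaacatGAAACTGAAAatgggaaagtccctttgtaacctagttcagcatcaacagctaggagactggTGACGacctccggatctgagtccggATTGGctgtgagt
H2-M3: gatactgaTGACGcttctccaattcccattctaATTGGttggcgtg

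Searched on both strands, TGACG followed after 20 bases by ATTGG lay in 31 of 32851 windows, or 0.0944%, belonging to 27 genes. B2m, H2-K1, H2-D1 and H2-M3 were among them. The pair of boxes was sought at this distance after the sequences had been read, so its presence in these genes is a description. Over distances of 15 to 30 bases, the class I gene H2-Q7 had the pair at 19 and the class II gene H2-Aa at 21. Set side by side, the stretches of H2-K1 and H2-D1, of 131 bases each, matched at 119 positions, with a longest unbroken run of 40 bases. The NF-kB core GGGANNNCC was found in the windows of H2-K1 and H2-D1 and in 18.6% of all windows, and the ISRE core (GAAA, any 2 bases, GAAA) in that of B2m and in 3.44% of all. Cores were matched only as written, so variant forms of these elements, in H2-K1 and H2-D1 too, were not sought. Psmb8 alone of the 8 held the interferon-gamma activated site (GAS) core TTCNNNGAA, which 8.30% of windows hold. ETS factors such as ETV4 bind a GGAA core. Neither of the extended forms searched, CCGGAAGT (3.89% of windows) and AGGAAGT (9.35%), was in the windows of these 8 genes. GGAA alone was not searched, and it stands in the stretches shown for H2-K1, H2-D1 and B2m. Binding of ETV4 was not tested.

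Tap1 and Psmb9 are transcribed away from each other. The 225 bases between their RefSeq starts (chr17:34187331-34187555, plus strand) are shown because they lie before both of these starts. The GENCODE model of Psmb9, whose position is given below, reaches to base 34187764 and so holds this stretch. Capitals mark a CCAAT and a TGACG, which here stand far apart.
Tap1 and Psmb9: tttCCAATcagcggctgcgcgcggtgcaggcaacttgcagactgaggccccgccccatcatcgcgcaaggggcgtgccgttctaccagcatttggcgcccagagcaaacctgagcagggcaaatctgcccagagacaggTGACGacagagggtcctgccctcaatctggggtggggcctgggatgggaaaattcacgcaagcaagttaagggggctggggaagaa

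Nlrc5 and 8 of its 9 partners were lower in ETV4 knockout cells, both without and with FGF, and Tapbp was not called in either. Nlrc5 and the immunoproteasome subunits Psmb8 and Psmb9 were lower by 5.99-fold to 9.71-fold, Tap2 and Psmb10 by 2.23-fold to 3.43-fold, and Tap1, B2m, H2-K1 and H2-D1 by 1.26-fold to 1.75-fold. Genes were called by the edgeR quasi-likelihood test at a Benjamini-Hochberg adjusted p under 0.05. This knockout differed from its control widely: 45.8% of all tested genes were called without FGF and 40.3% with FGF, of which those called lower made up 23.3% and 22.2% of tested genes. The median log2 fold change of the 10 genes was -0.98 without FGF and -1.01 with FGF, against -0.01 and -0.01 over all tested genes. In 9 of the 10 genes every knockout library lay below every control library, in each comparison, as did 28% of tested genes without FGF and 31.7% with FGF. In bulk libraries, fewer cells expressing a gene and less RNA per cell cannot be told apart.

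**Figure D1:**
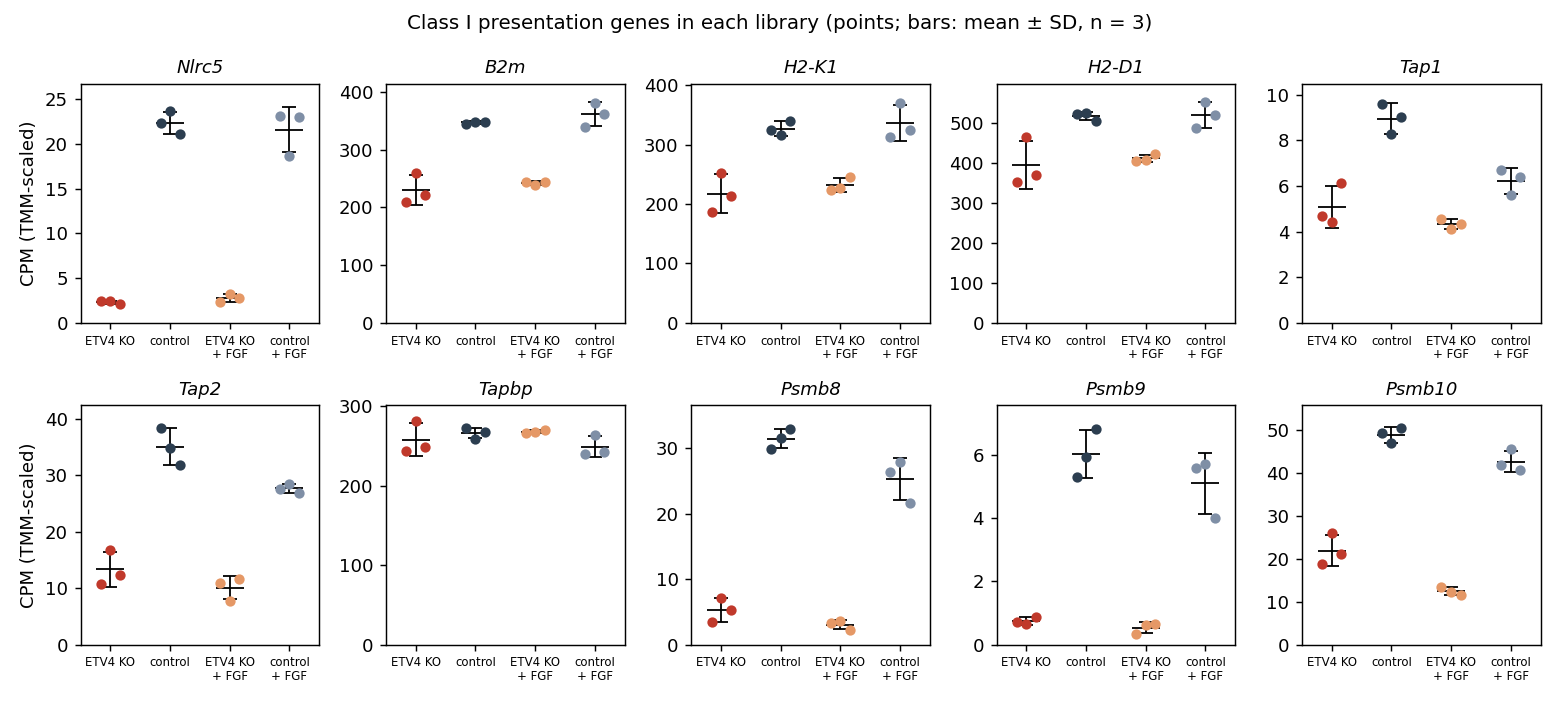
Level of each gene in CPM after TMM scaling (y axis, from 0) in each library (points), by group (x axis, knockout left of its control), with mean ± SD of 3 libraries. The knockout points lie below the control points in 9 panels, and in the Tapbp panel they overlap them without FGF and lie above them with FGF.

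Nlrc5 (mm10 chr8:94434356-94527272, plus strand) had 2.42, 2.40 and 2.10 CPM in knockout cells, against 22.3, 23.7 and 21.2 CPM in controls. With FGF it had 2.29, 3.23 and 2.81 CPM in knockout cells, against 23.1, 18.7 and 23.1 CPM in controls. The highest knockout library, at 3.23 CPM, lay far below the lowest control, at 18.7 CPM. The log2 fold change was -3.28 (SE 0.14, edgeR adjusted p = 3.66e-09) without FGF and -2.96 (SE 0.14, edgeR adjusted p = 5.22e-09) with FGF. Ordered from the gene most lowered, Nlrc5 stood at 198 of 12079 genes without FGF and at 245 with FGF.

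B2m (chr2:122147686-122153083, plus strand), the light chain that every class I molecule needs, had 209.3, 259.0 and 221.8 CPM in knockout cells, against 344.6, 348.8 and 348.3 CPM in controls. Among FGF cultures it had 243.5, 239.1 and 244.4 CPM in knockout cells, against 339.7, 381.5 and 362.2 CPM in controls. The groups did not overlap, and the knockout kept most of its B2m RNA: it fell by 33.8% without FGF (log2 fold change -0.59, SE 0.08, edgeR adjusted p = 5.97e-05) and fell by 32.9% with FGF (-0.58, SE 0.08, edgeR adjusted p = 7.98e-05).

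The heavy chains moved by similar small steps. H2-K1 (chr17:33996017-34000347, minus strand) had 186.1, 251.5 and 213.9 CPM in knockout cells, against 325.0, 315.6 and 340.2 CPM in controls. Under FGF the values were 223.5, 227.5 and 244.8 CPM in knockout cells, against 313.3, 370.4 and 324.5 CPM in controls. The groups were apart in both settings, and the log2 fold change was -0.59 (SE 0.10, edgeR adjusted p = 0.000438) without FGF and -0.54 (SE 0.10, edgeR adjusted p = 0.000962) with FGF. H2-D1 (chr17:35262730-35267499, plus strand) had 353.0, 464.7 and 371.1 CPM in knockout cells, against 522.5, 526.7 and 506.0 CPM in controls. Under FGF it had 405.7, 408.1 and 421.9 CPM in knockout cells, against 487.1, 554.3 and 521.0 CPM in controls. Its log2 fold change, -0.39 (SE 0.09, edgeR adjusted p = 0.00391) without FGF and -0.34 (SE 0.09, edgeR adjusted p = 0.00991) with FGF, was the smallest among the 9 genes called. Knockout replicate 2 was the highest knockout library for B2m, H2-K1 and H2-D1, and without it the log2 fold changes were -0.69 for B2m, -0.71 for H2-K1 and -0.52 for H2-D1. Class I genes are near-identical in parts, and how shared reads were counted is not given in the sources used here; the split between heavy chains is uncertain.

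The transporter chains fell unequally. Tap1 (chr17:34187553-34197225, plus strand) had 4.70, 4.44 and 6.12 CPM in knockout cells, against 9.59, 8.26 and 9.01 CPM in controls. In FGF cultures there were 4.54, 4.12 and 4.34 CPM in knockout cells, against 6.69, 5.61 and 6.38 CPM in controls. Its log2 fold change was -0.81 (SE 0.14, edgeR adjusted p = 0.000466) without FGF and -0.52 (SE 0.15, edgeR adjusted p = 0.0112) with FGF. Tap2 (chr17:34203527-34216321, plus strand), the other chain of the pump, had 10.8, 16.9 and 12.4 CPM in knockout cells, against 38.5, 34.9 and 31.9 CPM in controls. Given FGF, it had 10.9, 7.83 and 11.7 CPM in knockout cells, against 27.6, 28.5 and 27.0 CPM in controls. No knockout library reached the lowest control, and the log2 fold change was -1.40 (SE 0.16, edgeR adjusted p = 1.77e-05) without FGF and -1.45 (SE 0.16, edgeR adjusted p = 1.64e-05) with FGF.

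Tapbp (chr17:33915899-33929292, plus strand) did not pass the test. It had 244.0, 281.9 and 248.5 CPM in knockout cells, against 272.2, 258.9 and 268.3 CPM in controls, and these groups overlapped. With FGF it had 266.7, 268.1 and 269.7 CPM in knockout cells, against 240.4, 264.2 and 242.8 CPM in controls. Here the knockout libraries all lay above the controls, as did those of 29.7% of tested genes. The log2 fold change was -0.05 (SE 0.07, edgeR adjusted p = 0.619) without FGF and 0.11 (SE 0.07, edgeR adjusted p = 0.253) with FGF.

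Of the inducible catalytic subunits, Psmb9 and Psmb8 fell by folds near that of Nlrc5 and Psmb10 by less. Psmb9 (chr17:34181987-34187764, minus strand), the beta1i subunit, had 0.707, 0.659 and 0.888 CPM in knockout cells, against 5.31, 5.95 and 6.82 CPM in controls. In FGF cultures it had 0.327, 0.635 and 0.641 CPM in knockout cells, against 5.60, 5.71 and 4.00 CPM in controls. The knockout libraries lay far below every control, and the log2 fold change was -2.98 (SE 0.24, edgeR adjusted p = 8.36e-07) without FGF and -3.26 (SE 0.26, edgeR adjusted p = 6.03e-07) with FGF. Psmb8 (chr17:34197721-34201454, plus strand), the beta5i subunit, had 3.53, 7.13 and 5.23 CPM in knockout cells, against 29.9, 31.6 and 32.9 CPM in controls. With FGF it had 3.27, 3.60 and 2.27 CPM in knockout cells, against 26.4, 28.0 and 21.7 CPM in controls. Knockout replicate 2 was the highest knockout library, and the log2 fold change was -2.58 (SE 0.20, edgeR adjusted p = 5.08e-07) without FGF and -3.06 (SE 0.21, edgeR adjusted p = 1.89e-07) with FGF.

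Psmb10 (chr8:105935735-105938444, minus strand), the beta2i subunit, lies outside the H2 region. It had 18.7, 26.0 and 21.0 CPM in knockout cells, against 49.2, 46.9 and 50.4 CPM in controls. Under FGF the level was 13.4, 12.4 and 11.5 CPM in knockout cells, against 41.7, 45.5 and 40.7 CPM in controls. The groups were apart, with a log2 fold change of -1.16 (SE 0.11, edgeR adjusted p = 3.65e-06) without FGF and -1.78 (SE 0.11, edgeR adjusted p = 9.54e-08) with FGF. Some gene models share exon bases, where reads can be told apart only by strand, and the strand setting of the counting is not given in the sources used here. Tap1 and Psmb9 share 212 such bases on opposite strands, and Psmb8 shares 498 with Gm20496. Tap2 shares 165 with Gm20496 and 533 with Gm15821, and Nlrc5 shares 78 with 9330175E14Rik. Tapbp shares 904 with Gm19412, and 149 with Zbtb22 on its own strand.

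**Figure D2:**
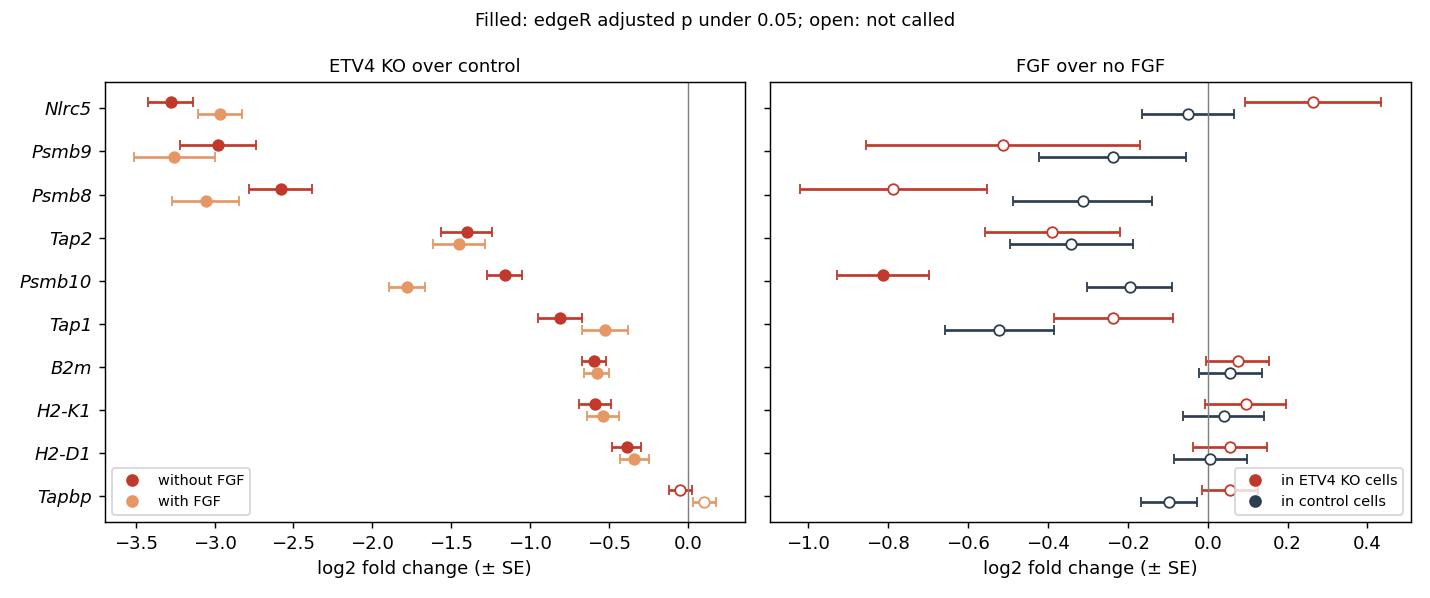
Log2 fold change ± SE (x axis) of each gene (y axis), for knockout over control (left) and FGF over no FGF (right); filled points have an edgeR adjusted p under 0.05. On the left all but Tapbp are filled, from -0.34 for H2-D1 to -3.28 for Nlrc5, and on the right Psmb10 in knockout cells is the one filled point.

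Each inducible subunit was also set against the constitutive subunit it replaces, as the difference in log2 CPM within a library. For Psmb8 over Psmb5 this was -4.13 ± 0.27 in knockout cells and -1.09 ± 0.07 in controls (SD, n = 3 each), a difference of -3.04. For Psmb9 over Psmb6 it was -7.29 ± 0.47 in knockout cells and -4.56 ± 0.13 in controls, a difference of -2.73. For Psmb10 over Psmb7 it was -3.66 ± 0.26 in knockout cells and -2.16 ± 0.10 in controls, a difference of -1.498. With FGF the differences were -3.16, -2.55 and -1.83. The groups did not overlap in any of the 6 comparisons, and the two-sided exact permutation p was 0.1 in each, the smallest that 3 against 3 libraries can give. Psmb5 was higher in knockout cells without FGF (log2 fold change 0.45, edgeR adjusted p = 0.0144), a call lost without control replicate 1 or 2 (edgeR adjusted p = 0.0630 and 0.0501). It was not called with FGF (0.12, edgeR adjusted p = 0.498). Psmb7 was not called without FGF (0.37, edgeR adjusted p = 0.0899) or with it (0.04, edgeR adjusted p = 0.861). Psmb6 was not called without FGF (-0.10, edgeR adjusted p = 0.536), but without knockout replicate 2 it was lower (-0.30, edgeR adjusted p = 0.000715), as it was with FGF (-0.52, edgeR adjusted p = 0.00550).

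**Figure D3:**
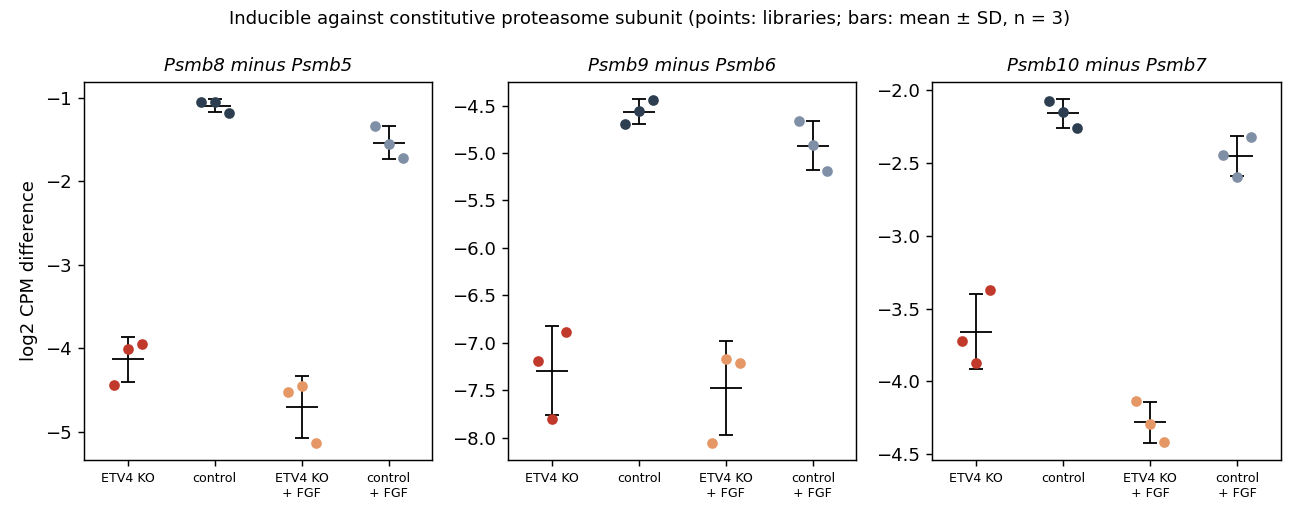
Log2 CPM of the inducible minus the constitutive subunit in each library (points, y axis) by group (x axis, knockout left of its control), with mean ± SD of 3 libraries. In all 3 pairs the knockout points lie below the control points, with differences between means from -1.498 to -3.16.

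Levels can be ordered between genes only per length, so CPM was divided by the exon length in kilobases. This length joins the exons of all models of a gene, so it can exceed that of the RNA made. It was 860 bases for B2m, 3381 for Psmb8 and 3660 for Psmb9. How far the order depends on this choice was not tested. In knockout cells the order ran from B2m (267.5) through H2-D1 (153.6), H2-K1 (73.9), Tapbp (71.1), Psmb10 (12.9), Tap2 (3.53), Psmb8 (1.57), Tap1 (0.928) and Nlrc5 (0.272) to Psmb9 (0.205 CPM per kb). In controls it ran from B2m (403.7) through H2-D1 (201.0), H2-K1 (111.3), Tapbp (73.5), Psmb10 (28.6), Psmb8 (9.31), Tap2 (9.28), Nlrc5 (2.64) and Psmb9 (1.65) to Tap1 (1.64 CPM per kb). Neighbours whose libraries overlapped were H2-K1 with Tapbp and Psmb8 with Tap1 in knockout cells, and Psmb8 with Tap2 and Psmb9 with Tap1 in controls. The genes that form the presented molecule were the most abundant and changed by the smaller folds, while Nlrc5, Psmb8 and Psmb9, which fell most, stood in the lower part of the order in both groups. Level and fold did not go together throughout. Tap1, the lowest by mean in controls, was lower by only 1.75-fold without FGF and 1.44-fold with FGF. The top 5 places were held by the same genes in the same order in all 4 groups.

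The FGF comparisons gave few calls. In knockout cells 1 of the 10 was called lower with FGF than without, Psmb10, where 0.944% of all tested genes were called lower. Psmb10 averaged 12.4 ± 0.97 CPM in knockout cells with FGF and 21.9 ± 3.70 CPM without (log2 fold change -0.81, SE 0.12, edgeR adjusted p = 0.00233), and the libraries did not overlap. Fitted on these 6 libraries alone the call was lost (log2 fold change -0.79, edgeR adjusted p = 0.0900). Psmb8 in the same comparison averaged 3.05 ± 0.69 CPM with FGF and 5.30 ± 1.80 CPM without (log2 fold change -0.79, SE 0.24, edgeR adjusted p = 0.105); DESeq2 called it (adjusted p = 0.0183), as did edgeR without knockout replicate 1 (-1.01, adjusted p = 0.0234). Without knockout replicate 2, H2-D1 was called higher with FGF in knockout cells (log2 fold change 0.19, edgeR adjusted p = 0.0313); 1.47% of tested genes were called higher there with all libraries. In 2 of the 10 genes the knockout libraries with FGF all lay below those without, as in 12.5% of tested genes.

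In control cells edgeR called 0 of the 10 genes for FGF, against 0.488% of all tested genes in either direction and 0.232% lower, and 2 had an unadjusted p under 0.05, as did 5.96% of tested genes. Tap1 averaged 6.23 ± 0.56 CPM in controls with FGF and 8.96 ± 0.66 CPM without (log2 fold change -0.52, SE 0.14, edgeR adjusted p = 0.210). Tap2 averaged 27.7 ± 0.79 CPM with FGF and 35.1 ± 3.30 CPM without (-0.34, SE 0.15, edgeR adjusted p = 0.821). Both were called lower when only the 6 control libraries were fitted (edgeR adjusted p = 0.0496 for Tap1 and 0.0356 for Tap2), and Tap1 also when knockout replicate 2 was left out of the fit (edgeR adjusted p = 0.0368). The FGF libraries of Tap1, Tap2, Psmb8 and Psmb10 all lay below those without FGF, 4 of 10 genes where 9.14% of tested genes did so. Nlrc5 was not called for FGF in knockout cells (0.26, SE 0.17, edgeR adjusted p = 0.388) or in controls (-0.05, SE 0.11, edgeR adjusted p = 1.00). The knockout difference itself was compared between the FGF settings by an interaction term. It was called for 0 of the 10 genes and for 0.0166% of tested genes; Psmb10 alone had an unadjusted p under 0.05, as did 10.2% of tested genes (difference -0.62, SE 0.16, edgeR adjusted p = 0.294), and DESeq2 also called 0 of the 10. Without knockout replicate 2 this term passed for Psmb10 (-0.48, edgeR adjusted p = 0.0440).

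The fall was set beside the genes around. Of the 10, 7 lie in the H2 region of chromosome 17 between Tapbp and H2-D1 (mm10 chr17:33915899-35267499), and 6 of these were lower in the knockout. Of 55 other tested genes there that were on none of the lists used here, 2 were lower and 31 higher without FGF, with a median log2 fold change of 0.38, and 4 were lower and 23 higher with FGF, with a median of 0.29. Without knockout replicate 2 these counts were 3 and 28, and 4 and 32. The 2 lower became 1 without knockout replicate 1, knockout replicate 3 or control replicate 1. Gpsm3 and Tnf, named after their values were seen, were the 2 lower without FGF. The median over the 621 tested genes of chromosome 17 was 0.31 without FGF and 0.25 with FGF. Over all tested genes, 23.3% were called lower and 22.5% higher without FGF, and 22.2% and 18% with FGF. Around Nlrc5, 4 of the nearest 20 tested genes were lower and 4 higher without FGF, and 6 were lower and 4 higher with FGF. Around B2m, 1 was lower and 7 were higher without FGF, and 0 were lower and 6 higher with FGF. Around Psmb10, 2 were lower and 1 was higher without FGF, and 5 were lower and 1 higher with FGF.

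**Figure D4:**
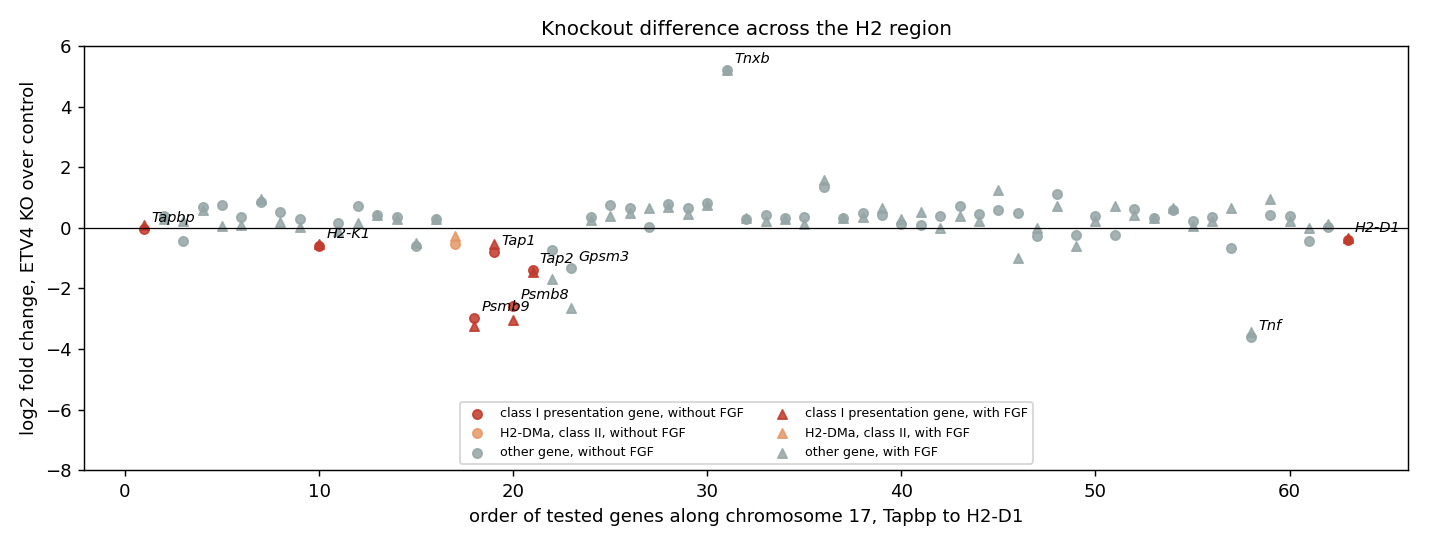
Log2 fold change of knockout over control (y axis) for the 63 tested genes from Tapbp to H2-D1 in their order on chromosome 17 (x axis), without FGF (circles) and with FGF (triangles). The class I presentation genes other than Tapbp lie below 0, in a region where the median of the other genes was 0.38 without FGF.

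Genes with a pattern like that of Nlrc5 were sought by the distance between log2 CPM profiles over the 12 libraries, each centred on its mean. Of 12078 other genes, Psmb9 ranked 41, Psmb8 116, Tap2 502, Psmb10 520, Tap1 1368, B2m 1441, H2-K1 1528, H2-D1 2453 and Tapbp 6327. The nearest gene outside the 10 was the class I heavy chain H2-Q6, which averaged 3.67 ± 0.18 CPM in knockout cells and 29.5 ± 2.45 CPM in controls. It was followed by Notum, which encodes a Wnt deacylase, Podnl1, Slit2, which encodes an axon guidance ligand, and Catsperd. Slit2 had 0 reads in the 3 knockout libraries without FGF and 60 in their controls, so it was at least 18.5-fold lower against a floor of 3 reads per group. The profiles carry a prior count of 2, which shrinks differences at low counts, so the nearness of Slit2 rests on that prior. Every profile spans the same split of these 12 libraries by genotype.

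Within a genotype the level of Nlrc5 was set against each of the other 9 genes over 6 libraries, 18 relations in all. None passed the adjustment (smallest adjusted exact permutation p = 0.125 for Pearson's r and 0.3 for Spearman's rho). The 6 libraries include those without and with FGF, which were permuted together. An r may therefore hold a difference between these groups beside the spread of replicates. In knockout cells Tap1 had r = -0.77 with Nlrc5 (exact permutation p = 0.0111, adjusted 0.125) and rho = -0.83 (exact permutation p = 0.0583, adjusted 0.525), with r = -0.90 without the 2 libraries farthest from the median of Nlrc5. In controls H2-K1 had r = -0.98 (exact permutation p = 0.0139, adjusted 0.125) and rho = -0.94 (exact permutation p = 0.0167, adjusted 0.3), with r = -0.67 without the 2 farthest. Both relations run against the direction of the genotype difference. An r over both genotypes is not given as a result, since these form separate clusters.

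Other class I heavy chains also fell. Of 14 tested, 10 were lower and 0 higher without FGF, and 9 were lower and 0 higher with FGF, with medians of -0.75 and -0.71. Beside this list and those below, 23.3% of all tested genes were called lower and 22.5% higher without FGF. With FGF these shares were 22.2% and 18%. The Qa-2 genes H2-Q6 and H2-Q7 were lower by 3.00 and 3.04 on the log2 scale without FGF (SE 0.11 and 0.19, edgeR adjusted p = 7.50e-10 and 7.05e-08). Mr1, which presents vitamin B metabolites to MAIT cells, averaged 0.284 ± 0.13 CPM in knockout cells and 5.25 ± 0.63 CPM in controls (log2 fold change -4.21, SE 0.28, edgeR adjusted p = 1.07e-07). H2-Q4 averaged 104.6 ± 8.86 CPM in knockout cells and 189.0 ± 10.8 CPM in controls (-0.85, SE 0.08, edgeR adjusted p = 2.52e-06). Hfe, a class I-like protein of iron control, was also lower (-1.81, SE 0.19, edgeR adjusted p = 9.95e-06). Hfe was lower with FGF than without in knockout cells (-1.10, edgeR adjusted p = 0.0360). H2-Q6, H2-Q7 and H2-Q4 share much of their sequence, and their split is uncertain.

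The chaperones and peptide trimming enzymes did not move one way. Of 14 tested, 4 were lower and 4 higher without FGF, and 3 were lower and 5 higher with FGF, with medians of 0.03 and 0.10. The 4 lower became 2 without control replicate 2 or 3, and the 3 lower with FGF became 1 without knockout with FGF replicate 1. Hspa5 (BiP), Pdia3 (ERp57) and Calr (calreticulin), folding factors of the endoplasmic reticulum, were higher without FGF, by 0.49, 0.46 and 0.80 on the log2 scale (edgeR adjusted p = 2.70e-05, 0.000172 and 0.000271). Erap1, the aminopeptidase that trims peptides there, averaged 24.0 ± 4.85 CPM in knockout cells and 40.3 ± 2.78 CPM in controls (-0.74, SE 0.13, edgeR adjusted p = 0.000576). As a share of all tested genes, 45.8% were called without FGF and 40.3% with FGF. Of 19 constitutive proteasome subunits and regulators, 2 were lower and 7 higher without FGF, and 5 were lower and 2 higher with FGF. Without knockout replicate 2 these counts were 7 and 6, and 9 and 4. The 2 lower without FGF became 1 when any other library except control with FGF replicate 2 was left out, and the 7 higher became 4 without control replicate 1. The 5 lower with FGF became 3 without knockout with FGF replicate 1 or 3 or control with FGF replicate 2, and the 2 higher became 1 without control with FGF replicate 1. Psma3, an alpha-ring subunit, was higher (0.60, SE 0.09, edgeR adjusted p = 0.000101). The PA28 activator gene Psme1 was not called without FGF (-0.11, edgeR adjusted p = 0.575), but was lower without knockout replicate 2 (-0.38, edgeR adjusted p = 3.57e-05). Its partner Psme2 was not called without FGF (0.09, edgeR adjusted p = 0.597) or with it (-0.25, edgeR adjusted p = 0.144).

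Among 11 genes for factors that bind class I promoters, 1 was lower and 5 higher without FGF, and 1 was lower and 2 higher with FGF; without knockout replicate 2 these counts were 2 and 5, and 3 and 4. With FGF the number lower became 2 without knockout replicate 1, and the 2 higher became 1 without any library with FGF other than control replicate 2, or without any control library that had no FGF. Rfx5, the DNA-binding RFX subunit through which Nlrc5 acts, was the one lower: it averaged 14.3 ± 4.17 CPM in knockout cells and 24.1 ± 1.68 CPM in controls (-0.75, SE 0.18, edgeR adjusted p = 0.00379). With FGF the Rfx5 change was -0.49 (edgeR adjusted p = 0.0375), a call lost when any of 7 libraries was left out: the 3 knockout libraries with FGF, control replicates 1 and 2, and control with FGF replicates 1 and 3 (edgeR adjusted p up to 0.159). Nfya, an NF-Y subunit, averaged 81.8 ± 3.16 CPM in knockout cells and 59.8 ± 1.49 CPM in controls (0.45, SE 0.07, edgeR adjusted p = 0.000131).

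Of 20 genes of interferon receptors and signalling, 11 were lower and 1 higher without FGF, and 11 were lower and 2 higher with FGF, with medians of -0.38 and -0.29. The 2 higher with FGF became 0 without knockout with FGF replicate 2 or control with FGF replicate 1, and 1 without knockout with FGF replicate 3 or control with FGF replicate 3. Irf1, a transcription factor that drives class I genes, averaged 25.1 ± 2.91 CPM in knockout cells and 58.3 ± 4.54 CPM in controls (-1.22, SE 0.09, edgeR adjusted p = 4.28e-07). With FGF it averaged 24.0 ± 0.50 CPM in knockout cells and 43.0 ± 1.40 CPM in controls (-0.84, SE 0.09, edgeR adjusted p = 1.18e-05). The kinase gene Jak2 averaged 74.8 ± 11.3 CPM in knockout cells and 177.5 ± 6.08 CPM in controls (-1.25, SE 0.10, edgeR adjusted p = 5.45e-07). Ifngr2, a chain of the interferon-gamma receptor, was lower (-0.73, SE 0.11, edgeR adjusted p = 0.000221), as were Stat3 (-0.61, SE 0.06, edgeR adjusted p = 7.50e-06) and the feedback inhibitor gene Socs3 (-0.995, SE 0.10, edgeR adjusted p = 5.83e-06). Socs3 was the only one of 128 tested list genes called for FGF in controls (-0.79, edgeR adjusted p = 0.00152).

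Among interferon-gamma induced genes outside the class I pathway, 10 of 12 tested were lower and 2 higher without FGF, and 9 were lower and 2 higher with FGF, with medians of -1.56 and -1.38. Gbp2, a guanylate-binding GTPase, averaged 5.17 ± 0.53 CPM in knockout cells and 14.4 ± 1.04 CPM in controls (-1.48, SE 0.14, edgeR adjusted p = 2.87e-06). Irgm1, an immunity-related GTPase, averaged 7.88 ± 1.07 CPM in knockout cells and 16.3 ± 1.68 CPM in controls (-1.04, SE 0.12, edgeR adjusted p = 1.63e-05). Cd274, which encodes the checkpoint ligand PD-L1, averaged 0.647 ± 0.16 CPM in knockout cells and 2.86 ± 0.28 CPM in controls (-2.12, SE 0.24, edgeR adjusted p = 1.72e-05). The chemokine gene Cxcl10 was higher (0.76, edgeR adjusted p = 0.0146), a call lost without knockout replicate 2 or control replicate 1 (edgeR adjusted p up to 0.0554), which leaves 1 of the 12 higher. With FGF the 2 higher became 0 without control with FGF replicate 1, and 1 without any other library except knockout replicates 2 and 3, and 1 with DESeq2 or limma-voom. The interferon genes themselves were near silent, with 3 reads of Ifng and 0 of Ifnb1 over all 12 libraries.

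Of 7 tested ligands read by T and NK cells, 4 were lower and 1 higher in each knockout comparison; without knockout replicate 2 the number higher was 2 in each. Cd274 stands on this list too. Cd47, which restrains phagocytes, averaged 236.8 ± 12.2 CPM in knockout cells and 309.9 ± 3.48 CPM in controls (-0.39, SE 0.06, edgeR adjusted p = 0.000257), and Pvr averaged 84.7 ± 1.23 CPM in knockout cells and 62.1 ± 3.78 CPM in controls (0.45, SE 0.07, edgeR adjusted p = 0.000301). Of 6 other NLR genes tested, 3 were lower and 0 higher without FGF, and 4 were lower and 0 higher with FGF. The 4 lower became 2 without knockout with FGF replicate 1 or control with FGF replicate 1, and 1 was higher without FGF when control replicate 3 was left out. The peptidoglycan sensor gene Nod2 averaged 1.33 ± 0.06 CPM in knockout cells and 4.78 ± 0.89 CPM in controls (-1.84, SE 0.19, edgeR adjusted p = 6.35e-06). Ciita, the NLR coactivator of class II genes, had 8 reads over all libraries and was not tested. Of the class II genes 2 were tested, and both were lower without FGF and 1 with FGF. Cd74, the invariant chain, had 0 reads in the 3 knockout libraries and 236 in their controls without FGF, at least 72.8-fold lower against a floor of 3 reads per group. With FGF it had 0 reads in knockout cells and 240 in controls, at least 74.9-fold lower. H2-DMa was the other (-0.55, edgeR adjusted p = 0.0122).

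Cd74 is also a marker of antigen-presenting cells. The 9 macrophage and leukocyte markers summed to 9.20 to 11.5 CPM in knockout cells and 9.96 to 13.1 CPM in controls, and to 9.07 to 9.94 CPM in knockout cells with FGF and 10.5 to 11.5 CPM in controls with FGF. Cd74 is 1 of these 9; the other 8 summed to 9.20 to 11.5 CPM in knockout cells and 5.73 to 9.40 CPM in controls, and to 9.07 to 9.94 CPM in knockout cells with FGF and 6.72 to 7.81 CPM in controls with FGF. Most of each sum was Cd68, and Ptprc, which encodes the leukocyte antigen CD45, had 0.240 to 0.374 CPM in knockout cells and 0.0472 to 0.141 CPM in controls, and 0.264 to 0.690 CPM in knockout cells with FGF and 0.126 to 0.253 CPM in controls with FGF. The 4 dendritic cell markers summed to 5.28 to 6.87 CPM in knockout cells and 3.34 to 4.96 CPM in controls, and to 3.95 to 6.72 CPM in knockout cells with FGF and 3.94 to 5.29 CPM in controls with FGF. Most of each sum was Zbtb46, at 5.15 to 6.77 CPM in knockout cells and 3.20 to 4.63 CPM in controls. Flt3 ran the other way, at 0 to 0.151 CPM in knockout cells and 0.141 to 0.498 CPM in controls. Itgax had at most 3 reads in a library, and Xcr1 had 0.

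The remaining lists were mixed, where 45.8% of all tested genes were called without FGF and 40.3% with FGF. Of 9 NF-kB subunits and inhibitors, 3 were lower and 4 higher without FGF, and 2 were lower and 1 higher with FGF. The 4 higher became 2 without control replicate 2, and without knockout replicate 2 the counts with FGF were 3 and 2. The inhibitor gene Nfkbie was lower (-0.88, SE 0.09, edgeR adjusted p = 8.79e-06) and Nfkbia, also an inhibitor, higher (0.41, SE 0.09, edgeR adjusted p = 0.00195). Of 15 genes of Polycomb repressive complex PRC2 and DNA methylation, which can silence class I genes in tumours, 4 were lower and 2 higher in each comparison. Without knockout replicate 2 these counts were 5 and 3 without FGF and 4 and 4 with FGF, and the 4 lower with FGF became 2 without knockout with FGF replicate 1 or 3 or control with FGF replicate 2. Tet1, which oxidises methylated cytosine, averaged 0.153 ± 0.03 CPM in knockout cells and 3.70 ± 0.83 CPM in controls (-4.52, SE 0.36, edgeR adjusted p = 6.81e-07), and Uhrf1, which helps copy DNA methylation, averaged 369.8 ± 20.6 CPM in knockout cells and 249.3 ± 7.61 CPM in controls (0.57, SE 0.06, edgeR adjusted p = 1.15e-05). Over the 128 tested genes of the 11 lists, 53 were lower and 26 higher without FGF, and 52 were lower and 17 higher with FGF. These calls were 61.7% of the 128 without FGF and 53.9% with FGF, against 45.8% and 40.3% of all tested genes. Over the 128 list genes FGF gave 3 lower and 1 higher in knockout cells (3.125%), and 1 lower and 0 higher in controls (0.781%). Of all tested genes, 2.42% and 0.488% were called in these FGF comparisons.

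**Figure D5:**
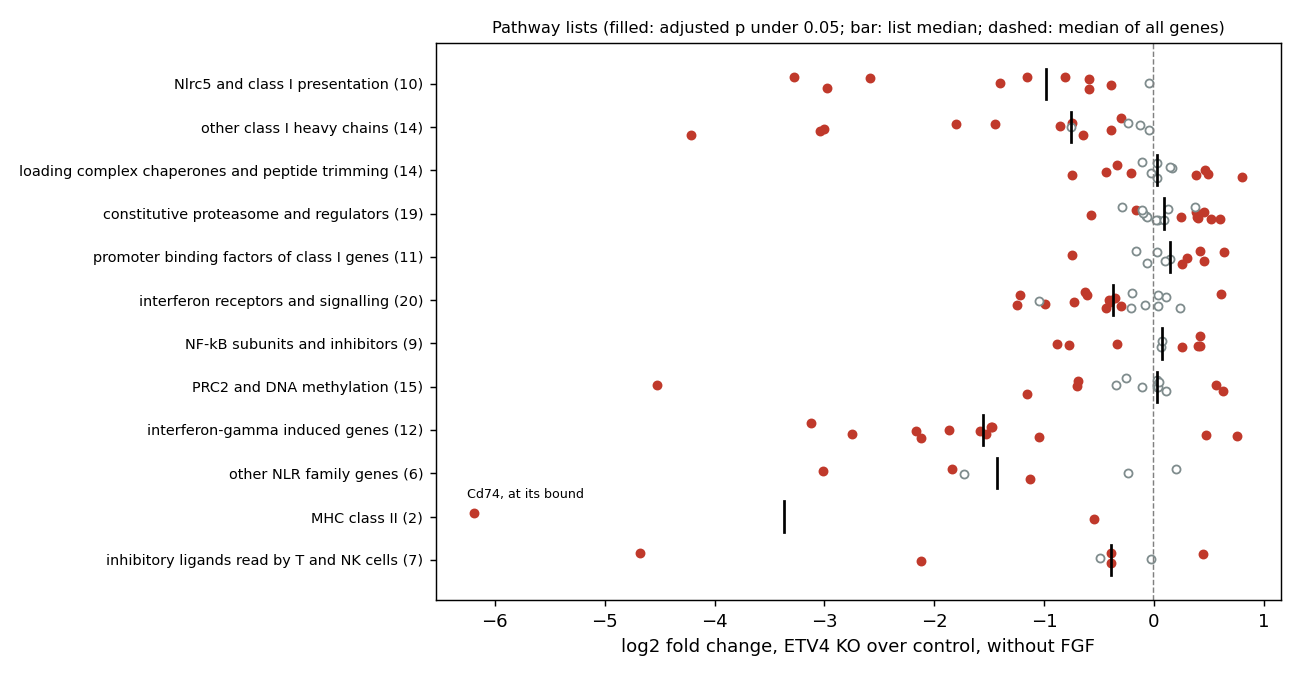
Log2 fold change of knockout over control without FGF (x axis) for Nlrc5 and the class I presentation genes and for the 11 lists (y axis, number tested in brackets); filled points have an edgeR adjusted p under 0.05, bars are medians, and Cd74 is drawn at its bound against a floor of 3 reads. The median was -0.98 for the first row, -0.75 for other heavy chains and -1.56 for interferon-gamma induced genes, against -0.01 for all tested genes.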

How the data were processed

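The deposited values are raw read counts per gene symbol, which the authors did not normalize; the submitters' processing notes name the tools STAR 2.7.9a, featureCounts, FastQC 0.11.9 and R 4.1.1 and the builds mm10 and hg38. Libraries were made with a stranded polyA kit after collagenase digestion of the gels, per the labels' protocols. The sources used here give no annotation release, strand setting or rule for multi-mapping reads. Of 31017 symbols, 13134 had no count.

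Counts were tested in R 4.3.3 with the edgeR 4.0.16 quasi-likelihood test, after filterByExpr and TMM scaling (factors 0.915 to 1.05), group means fitted to all 12 libraries, two-sided tests, with Benjamini-Hochberg adjustment over 12079 genes. CPM uses TMM-scaled library sizes; n is 3 libraries per group and ± is SD. Profiles and subunit differences used log2 CPM with a prior count of 2. Replicates of a group differed beyond sampling noise (chi-square per degree of freedom 3.34 or more). The test was checked on simulated counts. Alternatives used DESeq2 1.42.0, limma 3.58.1 (voom), other scalings and filters, and fewer libraries. Gene positions and exon lengths are from GENCODE vM21 (mm10).

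The members and lists were chosen with earlier results of these data known. Genes named were the 10 members, Etv4, up to 5 genes per list with the smallest adjusted p without FGF, a few set regulators, and the 5 nearest to Nlrc5; Cxcl10, H2-DMa, Gpsm3 and Tnf were added after their values were seen. Motif spacing was also chosen after the sequences were read. Single results for some listed genes are not reported here.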

Additional observations from a re-analysis of the deposited data

How the results depend on the processing

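All 10 genes kept direction and call in both knockout comparisons under all 20 alternatives, with 9 lower and 0 higher throughout; over members and other named genes, 3349 results kept their call status, 74 lost a call, 35 gained one and 0 called results reversed, while 21 uncalled values changed sign. The FGF results moved. For FGF in controls, 2 of the 10 were lower in the 6 compared libraries alone, and 0 to 1 with a library left out. For FGF in knockout cells, 2 were lower with DESeq2, 0 in the compared libraries alone, and 1 to 2 lower and 0 to 1 higher with a library left out. For the interaction, 0 to 1 were lower with a library left out. The number of the other 9 genes among the 100 nearest to Nlrc5 was 1, became 0 by Pearson's r and 2 with a prior count of 0.5. Fitted on the compared libraries alone, the constitutive proteasome list gave 0 lower and 3 higher without FGF and 9 and 4 with FGF, the chaperone list 2 lower without FGF, the NF-kB list 2 higher in each comparison, the PRC2 list 2 lower without FGF and 4 higher with FGF, the ligand list 2 higher with FGF, and the promoter factors 3 higher without FGF, and 3 lower and 4 higher with FGF. Causes of these shifts were not tested. The largest shift of the median log2 fold change under another scaling was 0.0506.

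Same-numbered replicates correlated from -0.0874 to 0.343 in their deviations, and differently numbered ones from -0.301 to 0.177. The highest value joined knockout replicate 2 and control with FGF replicate 2. Whether the numbers pair libraries cannot be told from these ranges. With the replicate block 9 and 9 of the 10 genes were lower in the knockout comparisons, 0 for FGF in controls, 1 for FGF in knockout cells and 0 for the interaction. Genes of low count, such as Psmb9, Cd274 and Mr1, are the least precise at this depth.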
